A study of Mus musculus with 6 samples.

Results

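The genes described here are those of 4 families of the pre-mRNA splicing machinery, the SR proteins, the SF3A and SF3B subunits, the small nuclear ribonucleoprotein (snRNP) polypeptides and the heterogeneous nuclear ribonucleoproteins (hnRNPs), in splenic T cell preparations with and without miR-142. They were chosen by symbol (Srsf with a digit, Sf3a or Sf3b, Snrp, Hnrnp) among probe sets that the platform annotation assigns to 1 gene. This gave 47 genes of 18193, measured by 139 of the 45037 probe sets tested, and a gene's level is that of its brightest probe set, by the mean of all 6 arrays. The knockout group (KO) comprised 3 male C57BL/6 miR-142 KO mice aged 10 weeks, and the control group (WT) 3 wild-type littermates of the same sex, strain and age. T cells were taken from individual spleens by negative selection, so each array is 1 mouse. How the KO allele was made is not given in the sources used here.

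Splicing removes introns from nuclear transcripts. SR proteins bind exons and recruit the machinery, U1 and U2 snRNPs recognise the 5' splice site and the branch point, SF3A and SF3B are the parts of U2 that grip the branch point, and hnRNPs often act against exon inclusion. T cells change the splicing of many transcripts when activated, among them the exons of CD45 that Hnrnpll and Hnrnpl repress. miR-142, the microRNA missing in KO, is made across the blood lineages, and its mature strands pair with targets through the seed at bases 2 to 8. Both strands are shown here because their absence defines the KO group, with the seed in capitals (RefSeq, GRCm38.p6, chr11:87756867-87756887, plus strand and chr11:87756903-87756925, plus strand).
miR-142a-5p: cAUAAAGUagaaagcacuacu
miR-142a-3p: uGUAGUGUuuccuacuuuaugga

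The values are log2 intensities from the robust multi-array average (RMA), a background-corrected, quantile-normalised summary of each probe set, and all differences are KO minus WT on that log2 scale. Array medians were 5.70 to 5.77, and correlations across probe sets were 0.994 to 0.996 within WT, 0.986 to 0.995 within KO and 0.940 to 0.965 between genotypes. The transcript listed as Mir142 read 7.93, 8.13 and 7.67 in WT and 5.97, 5.88 and 5.9 in KO, a fall of 3.98-fold (limma adjusted p = 6.6e-05). Whether its probe set lies in the deleted part is not known here. Markers of other cells moved with genotype. All 10 measured T cell markers fell, and their list mean was 12.1 in each WT array and 9.29 to 10.7 in KO. Of the other lists, 11 of 13 neutrophil markers rose (6.26 to 7.23 in WT, 10.1 to 12.8 in KO), as did 10 of 11 mast cell, basophil and eosinophil markers (5.90 to 5.98, 9.96 to 10.4), 8 of 13 of monocytes and macrophages (5.49 to 5.98, 7.86 to 8.69), 9 of 9 erythroid markers (7.68 to 8.07, 10.2 to 11.3), 6 of 9 of megakaryocytes and platelets with 1 that fell (6.17 to 6.35, 7.21 to 7.38), 1 of 9 of B cells (6.33 to 6.73, 6.91 to 8.78) and 14 of 14 proliferation markers (9.10 to 9.25, up to 11.5). A measure of RNA quality moved with genotype too: Actb probe sets at the 3' end exceeded those at the 5' end by 0.163 to 0.228 in WT and 0.318 to 0.397 in KO. For Gapdh the same difference was -0.18 to -0.15 in WT and 0.18, -0.07 and -0.10 in KO replicates 1, 2 and 3. Hybridization controls, which do not measure RNA quality, read 10.1 to 10.3 in WT and 9.80 to 9.91 in KO. The part of these differences in the results was not tested. In bulk samples fewer cells of a type and less RNA per cell cannot be told apart.

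In KO 18 of the 47 splicing genes rose and 3 fell at a limma adjusted p below 0.05, which is 38.3% and 6.38%, where 18.6% of all genes rose and 18.6% fell. The median difference of the 47 was 0.15, and that of all genes was -0.06. Among genes whose probe sets lay above the median intensity, 19 of 45 splicing genes rose and 2 fell (42.2% and 4.44%), where 28.5% of all such genes rose and 27.6% fell. Of the splicing genes 0 rose by at least 2-fold and 1 fell by as much, where 8.16% and 5.02% of all genes did so. With a minimum of 1.5-fold 4 rose and 1 fell (8.51% and 2.13%), where 13.5% and 10.8% of all genes did, so that by this measure splicing genes were called in a smaller share than all genes in both directions. The KO arrays all exceeded the WT arrays for 27 of the 47 (24.1% of all genes) and all lay lower for 5 (29.7% of all genes), and for 15 the groups overlapped. Their probe sets were bright, with a median intensity at percentile 97.3 of all genes, and only Srsf12 and Snrpn lay below percentile 80. Intensities of different probe sets do not rank transcripts by abundance. Averaged over the 47, the arrays read 11.53, 11.51 and 11.50 in WT and 11.64, 11.71 and 11.65 in KO. Among the 18 genes that rose, KO replicate 2 was the highest KO array for 12, and it was so for 2081 of the 3385 genes that rose anywhere. Of the KO arrays, that one also had the lowest marker means for T cells, for neutrophils and for mast cells, basophils and eosinophils. It had the highest means for B cell, erythroid, proliferation, and megakaryocyte and platelet markers. When arrays were scaled to their hybridization controls, which moved the median of all genes from -0.06 to 0.31, 38 splicing genes rose and 1 fell, where 42.8% of all genes rose and 7.22% fell, so directions below are relative to the RMA scale. Without WT replicate 2, 9 splicing genes rose and 2 fell (19.1% and 4.26%), where 14.3% of all genes rose and 13.4% fell.

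**Figure D1:**
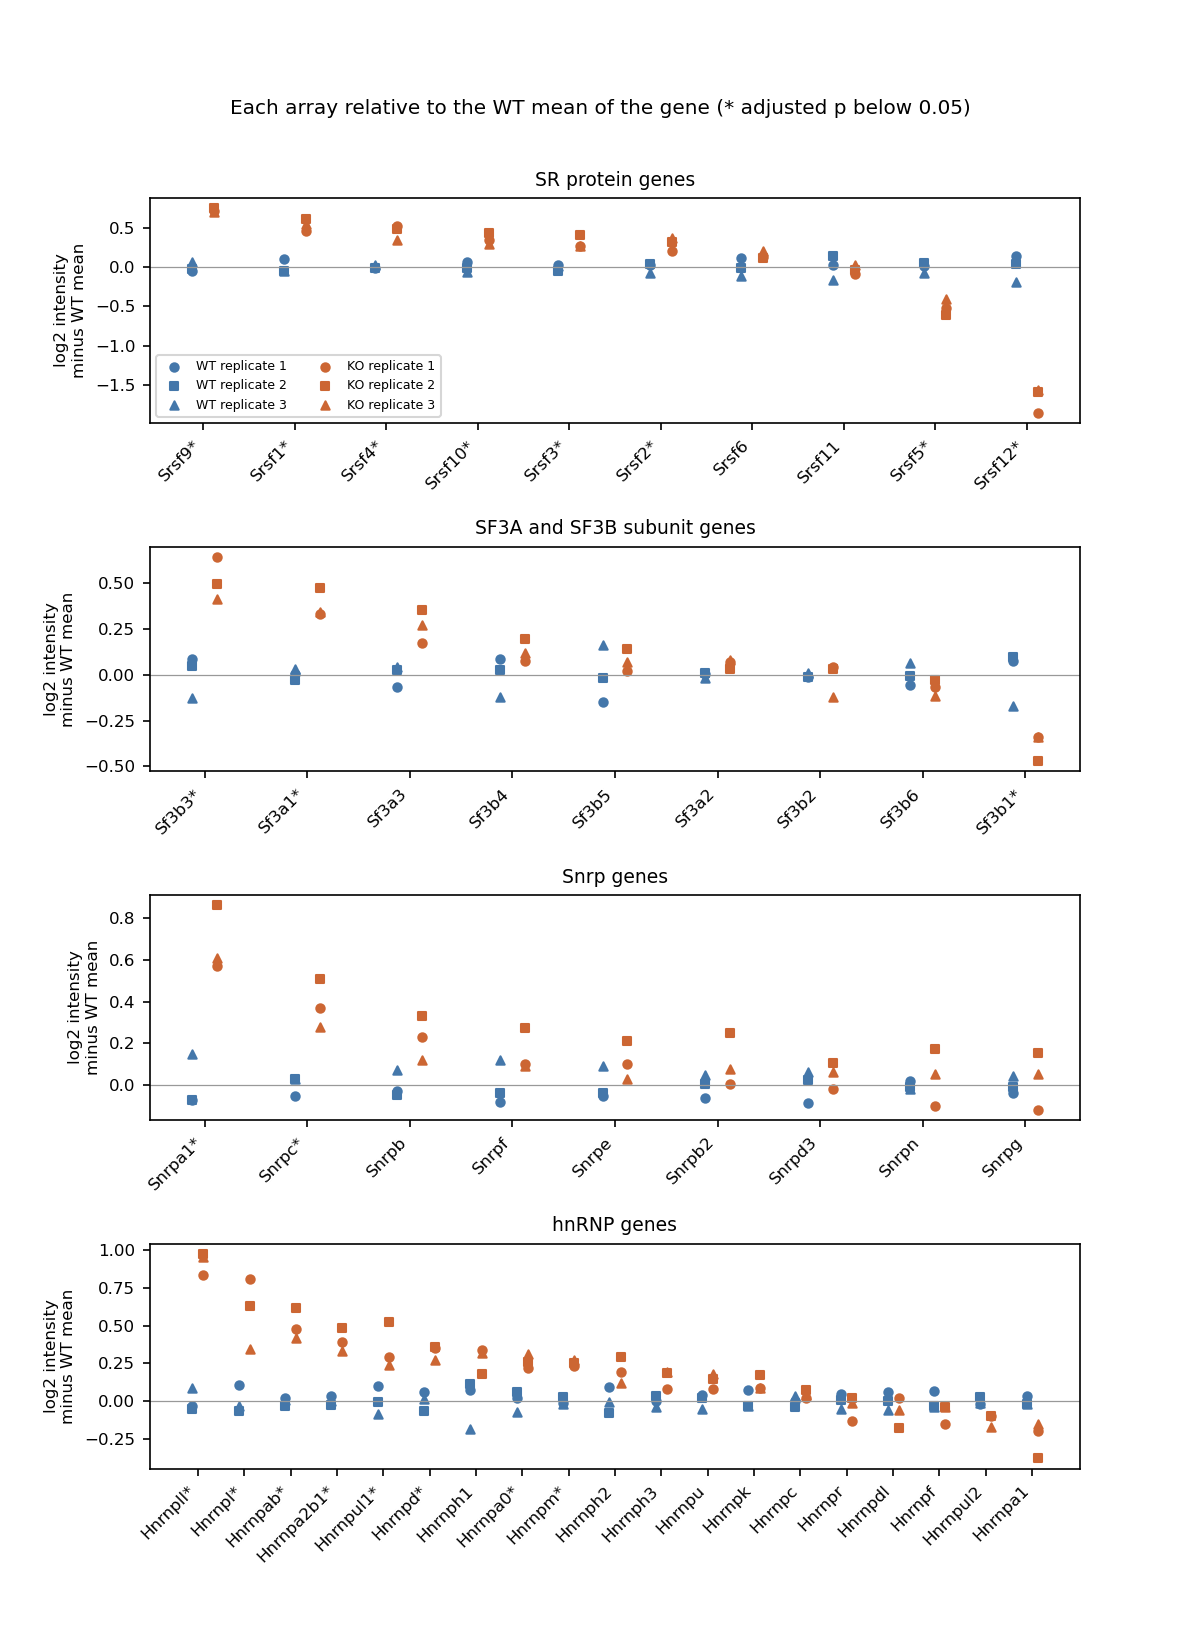
Log2 intensity of each array minus the WT mean of the gene (y axis) for the 47 genes by family, with WT in blue, KO in orange and a symbol for each replicate; a star marks an adjusted p below 0.05. The 18 starred genes above 0 include Srsf9 and Hnrnpll, and the 3 below are Srsf12, Srsf5 and Sf3b1.

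**Figure D2:**
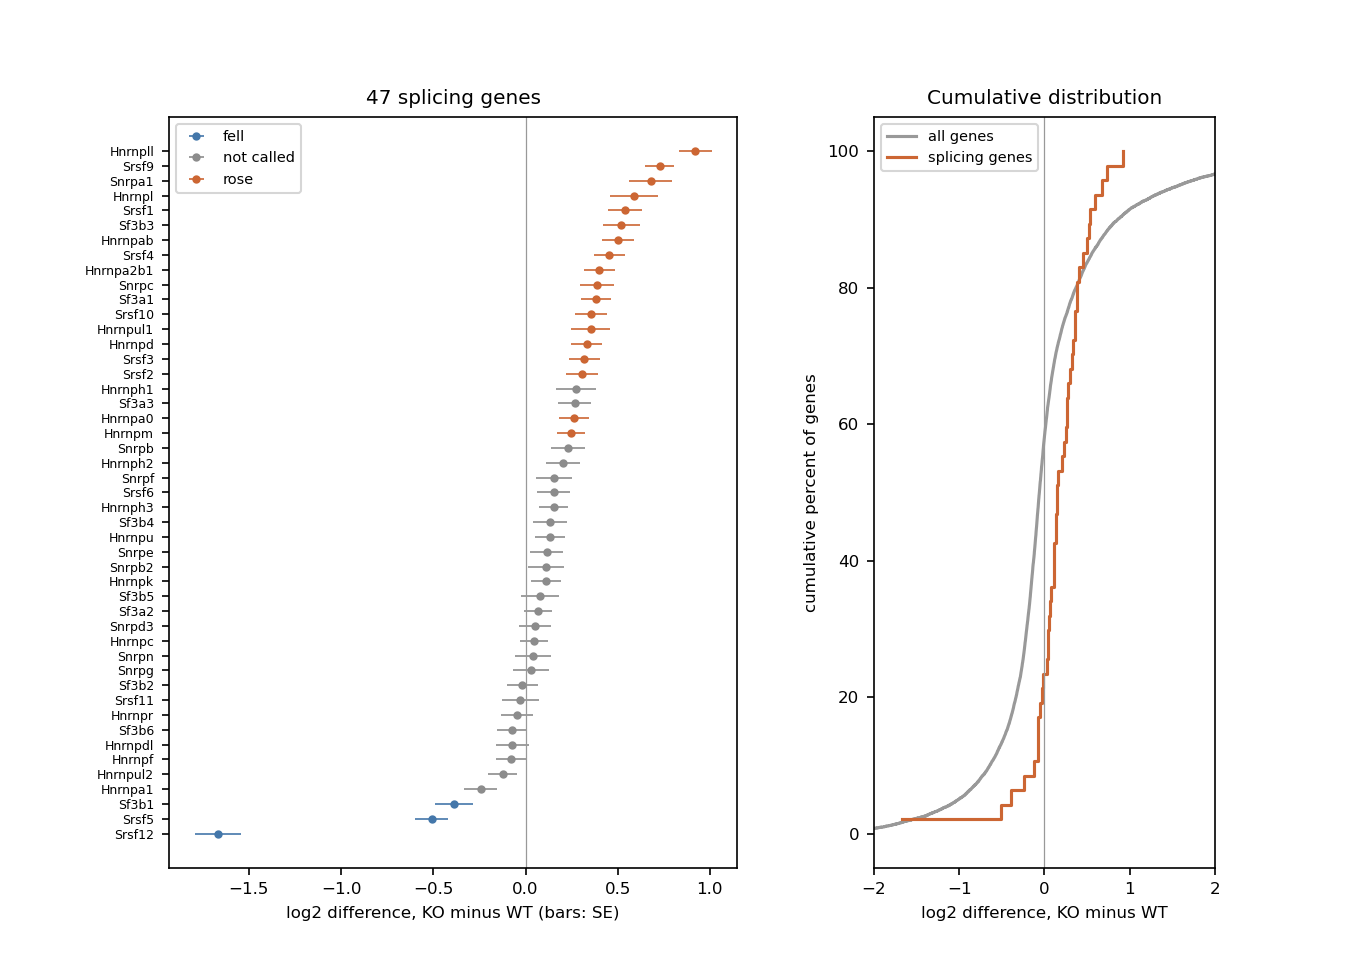
Left, the log2 difference (KO minus WT) of each gene with its standard error, orange where it rose, blue where it fell and grey where it did not pass. Right, the cumulative percent of genes at or below each difference for the 47 genes and for all 18193 (the axis is limited to -2 to 2), with medians of 0.15 and -0.06.

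Of the 10 SR protein genes 6 rose and 2 fell (60% and 20%, against 18.6% of all genes in each direction). Srsf9, an SR protein that acts in splice site choice, read 11.25, 11.28 and 11.36 in WT and 12.02, 12.05 and 12 in KO. The groups did not overlap and the arrays of each lay close together, with a rise of 1.66-fold (log2 0.73 ± 0.08, SE, n = 3 per group, limma adjusted p = 0.00055). Srsf1, the founding SR protein, read 12.59, 12.44 and 12.44 in WT and 12.95, 13.1 and 13.04 in KO. It rose by 0.54 ± 0.09 (limma adjusted p = 0.00366). Srsf4 rose by 0.45 ± 0.09 and Srsf10, a repressor when dephosphorylated, by 0.36 ± 0.09. Srsf3, which also couples splicing to mRNA export, rose by 0.32 ± 0.08. Srsf2, an exon enhancer binder chosen after its values were seen, rose by 0.30 ± 0.09. The calls of Srsf2 and Srsf3 were each lost when any array but KO replicate 1 was left out, and that of Srsf10 was lost without WT replicate 2 or 3. With an array left out 3 to 6 of the 10 SR genes rose, where 14.3% to 17.6% of all genes did. Under scaling to hybridization controls 7 rose and 1 fell, where 42.8% of all genes rose and 7.22% fell.

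Srsf5 and Srsf12 went the other way. Srsf5, an SR protein with the brightest probe set of the family, read 13.32, 13.36 and 13.24 in WT and 12.79, 12.7 and 12.9 in KO. All KO arrays lay below WT, and it fell by 0.51 ± 0.09 (limma adjusted p = 0.00489). Srsf12, a relative of Srsf10, was dim at 5.75, 5.65 and 5.41 in WT and 3.75, 4.01 and 4.04 in KO. It fell by 1.67 ± 0.13 (limma adjusted p = 0.00013), the largest difference of the 47 genes. RMA carries no detection call, so it is not known whether the KO level is above background. Under scaling to hybridization controls Srsf12 fell by 1.30, whereas Srsf5 differed by -0.14 and was not called. The remaining members, Srsf6 and Srsf11, differed by 0.15 ± 0.09 and -0.03 ± 0.10 and did not pass.

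The upstream sequences of 3 SR genes are shown as examples, Srsf9 and Srsf1 having risen and Srsf5 having fallen. Srsf12, which fell most, is not shown. Each window runs from 250 bases before to 50 after the annotated start (RefSeq, GRCm38.p6). Capitals mark the letters TTTCCCGC or TTTGGCGC, forms of the motif of E2F factors, and CCGGAAG, a core bound by ETS factors, on either strand. The windows of Snrpa1, which rose, and Sf3b1, which fell, were marked in the same way, held neither motif and are not shown. Srsf9 (chr5:115326927-115327226, plus strand) held none, Srsf1 (chr11:88047123-88047422, plus strand) held 1 E2F match starting at -67, and Srsf5 (chr12:80945249-80945548, plus strand) held 2 ETS matches starting at -90 and -23.
Srsf9: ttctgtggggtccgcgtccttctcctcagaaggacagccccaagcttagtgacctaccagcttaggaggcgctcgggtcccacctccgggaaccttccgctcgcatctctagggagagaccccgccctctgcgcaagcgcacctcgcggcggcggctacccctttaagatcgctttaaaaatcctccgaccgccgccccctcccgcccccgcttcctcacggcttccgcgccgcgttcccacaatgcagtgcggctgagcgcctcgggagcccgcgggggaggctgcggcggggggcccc
Srsf1: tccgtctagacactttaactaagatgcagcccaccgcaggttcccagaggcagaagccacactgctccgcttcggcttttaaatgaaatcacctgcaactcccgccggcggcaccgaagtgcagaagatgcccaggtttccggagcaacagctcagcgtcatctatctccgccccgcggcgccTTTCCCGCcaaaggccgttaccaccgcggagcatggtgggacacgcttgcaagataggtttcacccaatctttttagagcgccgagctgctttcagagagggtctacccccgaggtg
Srsf5: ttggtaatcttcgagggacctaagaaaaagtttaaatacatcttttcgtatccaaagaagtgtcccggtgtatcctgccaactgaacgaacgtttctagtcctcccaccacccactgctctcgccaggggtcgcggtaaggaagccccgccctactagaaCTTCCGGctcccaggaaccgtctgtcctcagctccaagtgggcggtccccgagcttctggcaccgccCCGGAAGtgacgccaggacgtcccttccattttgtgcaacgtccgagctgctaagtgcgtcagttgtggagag

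Promoter windows were found for 42 of the 47 genes, and 4 motifs were searched on both strands. The ETS letters stood in those of 15 (35.7%), against 9.93% of all 27025 genes in the table. They stood in 5 of 17 genes that rose, 1 of 3 that fell and 9 of 22 that did not pass (29.4%, 33.3% and 40.9%). The E2F letters stood in 4 of the 42 (9.52%), against 1.8% of all genes, in 3 of the 17 that rose and 1 of the 22 that did not pass. Some genes had several windows, 58 for the 42 and 32851 for all genes. By window the ETS shares were 34.5% and 8.86%, and the E2F shares 6.9% and 1.56%. The letters TGACGTCA, of cAMP-response elements, stood in 1 of 42 (2.38%, 2.03% of all genes), and AAGATGGC, a form of the YY1 motif, in 2 (4.76%, 3.19% of all genes). Windows of the splicing genes had a median GC content of 60.7%, against 52.7% over all windows, and a match describes letters only.

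Of the 9 SF3A and SF3B genes 2 rose and 1 fell (22.2% and 11.1%, against 18.6% of all genes in each direction). Sf3b3, the large scaffold subunit of SF3B, read 10.27, 10.23 and 10.06 in WT and 10.83, 10.68 and 10.6 in KO, and it rose by 0.52 ± 0.10 (limma adjusted p = 0.00747). Sf3a1, the subunit that contacts U1 and U2, rose by 0.38 ± 0.08 (limma adjusted p = 0.0118). Sf3b1, the subunit that holds the branch point helix, read 12.4, 12.42 and 12.15 in WT and 11.98, 11.85 and 11.98 in KO. It fell by 0.39 ± 0.10 (limma adjusted p = 0.0281) without overlap of the groups, yet the call was lost when any array but WT replicate 3 was left out. The brightest of the complex, Sf3b6, which contacts the branch point adenosine, differed by -0.07 ± 0.08. The other 5 subunits differed by -0.02 to 0.27 and did not pass. Sf3a3, at the upper end and chosen after its values were seen, had KO arrays that all exceeded WT (limma adjusted p = 0.0609). When all probe sets of a gene were averaged 0 of the 9 rose and 0 fell, with Sf3b3 at 0.088, Sf3a1 at 0.16 and Sf3b1 at -0.21 (limma adjusted p = 0.699, 0.123 and 0.104). In that setting 18.4% of all genes rose and 20.1% fell. With hybridization-control scaling 7 of the 9 rose and 0 fell, where 42.8% of all genes rose and 7.22% fell.

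Of the 9 Snrp genes 2 rose and 0 fell (22.2% and 0%, against 18.6% of all genes in each direction). Both encode proteins particular to 1 snRNP. Snrpa1, the A' protein of U2, read 10.61, 10.61 and 10.83 in WT and 11.25, 11.54 and 11.29 in KO. It rose by 0.68 ± 0.12 (limma adjusted p = 0.00414), and KO replicate 2 was the highest. Snrpc, the C protein of U1, rose by 0.39 ± 0.09 (limma adjusted p = 0.0168), but did not pass when WT replicate 1 or 2 was left out or its probe sets were averaged. Proteins of the Sm ring, which most spliceosomal snRNPs carry, are encoded by Snrpb, Snrpd3, Snrpe, Snrpf, Snrpg and Snrpn. Their 6 genes differed by 0.03 to 0.23 and did not pass, and the probe set of Snrpn was dim, at 5.08 in WT. Snrpd1 and Snrpd2, also of the ring, have only probe sets shared with other genes and are outside the 9. Those probe sets, chosen after their values were seen, rose by 0.81 and 0.32. Snrpe, the brightest, read 13.15, 13.16 and 13.29 in WT and 13.3, 13.41 and 13.23 in KO, so that the groups overlapped. Under scaling to hybridization controls all 9 Snrp genes rose, where 42.8% of all genes did. Snrpb2, the B'' protein of U2 and chosen after its values were seen, differed by 0.11 ± 0.10 (limma adjusted p = 0.436), and its difference from Snrpa1 was not tested.

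Of the 19 hnRNP genes 8 rose and 0 fell (42.1% and 0%, against 18.6% of all genes in each direction). Hnrnpll, which represses the variable exons of CD45 in activated T cells, read 10.24, 10.22 and 10.36 in WT and 11.11, 11.25 and 11.23 in KO. It had the largest rise of the 47 genes, 1.89-fold (log2 0.92 ± 0.09, limma adjusted p = 0.00031), and its further probe set rose by 1.00 ± 0.11. Its paralogue Hnrnpl, which acts on the same exons, read 10.88, 10.71 and 10.74 in WT and 11.58, 11.4 and 11.12 in KO. It rose by 0.59 ± 0.13 (limma adjusted p = 0.0126), with the widest spread among KO arrays of these members, and the call was lost without WT replicate 2 and, at 0.26, when its probe sets were averaged. Its further probe set, dim at 4.55 in WT, differed by -0.08 ± 0.10. Hnrnpab and Hnrnpa2b1, which bind A/U-rich and UAG-bearing RNA in nucleus and cytoplasm, rose by 0.50 ± 0.09 and 0.40 ± 0.08. However, the brightest Hnrnpa2b1 probe set without a suffix (_s_at, _x_at or _a_at) differed by -0.26. The mean of the Hnrnpa2b1 probe sets differed by 0.16, and neither value passed. Hnrnpul1, an RNA-binding relative of Hnrnpu, rose by 0.35 ± 0.11 (limma adjusted p = 0.0431). Hnrnpd, a regulator of mRNA decay, Hnrnpa0 and Hnrnpm, all chosen after seeing their values, rose by 0.33, 0.26 and 0.25. The calls of Hnrnpul1, Hnrnpa0 and Hnrnpm were lost whichever array was left out, and the 8 that rose became 3 to 5. In these fits 14.3% to 17.6% of all genes rose. Without WT replicate 2, 3 of 19 hnRNP genes rose, where 14.3% of all genes did. With hybridization-control scaling 15 rose, where 42.8% of all genes did. Hnrnpc, the brightest of the family, differed by 0.05 ± 0.08. The 11 genes that did not pass lay between -0.24 for Hnrnpa1 and 0.28 for Hnrnph1, both chosen after seeing their values. They had 26 further probe sets, of which 3 rose and 4 fell. When probe sets with a suffix were avoided, 7 hnRNP genes rose and 2 fell, where 17.9% of all genes rose and 18% fell.

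The size of a difference varied between probe sets of the same gene. There were 92 further probe sets for 35 genes, of which 28 rose and 11 fell, where 13.9% of all probe sets rose and 15.5% fell (29.4% in either direction). The genes that rose had 37 of them, of which 22 rose, 3 fell and 12 did not pass. In SR genes that rose, 12 of 17 rose too, and each of these 12 by more than the brightest probe set. Srsf3 is the clearest case. Its brightest probe set rose by 0.32 from a WT mean of 12.46, and 4 others with WT means of 8.67 to 10.72 rose by 0.66 to 1.51. The one with the largest rise read 8.6, 8.54 and 8.88 in WT and 10.02, 10.37 and 10.14 in KO, a 2.84-fold rise (limma adjusted p = 0.00022). In hnRNP genes that rose, 8 of 13 further probe sets rose too, and both further probe sets of Snrpa1 rose, by 0.71 and 0.51. For Sf3b3 and Sf3a1 0 of 4 rose. Of the 3 further probe sets of Sf3b1 1 fell, by 0.45, and the others differed by -0.23 and 0.24. The genes that did not pass had 52 further probe sets, of which 6 rose and 7 fell. Srsf1 had 4 further probe sets that rose by 0.58 to 1.16, and Srsf10 had 3 that rose by 0.53 to 0.98.

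For 3 genes a further probe set fell although the brightest rose. Hnrnpab had 5 further probe sets that rose by at least 0.61, whereas the remaining one read 12.01, 11.86 and 11.86 in WT and 10.41, 10.65 and 10.64 in KO. That fall of 2.53-fold (log2 difference -1.34 ± 0.10, limma adjusted p = 0.00013) was larger than any of the gene's rises, and its level was not low. The Srsf3 probe set that fell read 8.98, 8.87 and 8.7 in WT and 7.98, 7.97 and 8.35 in KO, a fall of 0.75 ± 0.13 (limma adjusted p = 0.00513). For Snrpc the falling probe set was dim, at 5.58 ± 0.13 (SD, n = 3) in WT and 5.19 ± 0.08 in KO. Which exons, introns or antisense transcripts these probe sets cover is not given in the sources used here.

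**Figure D3:**
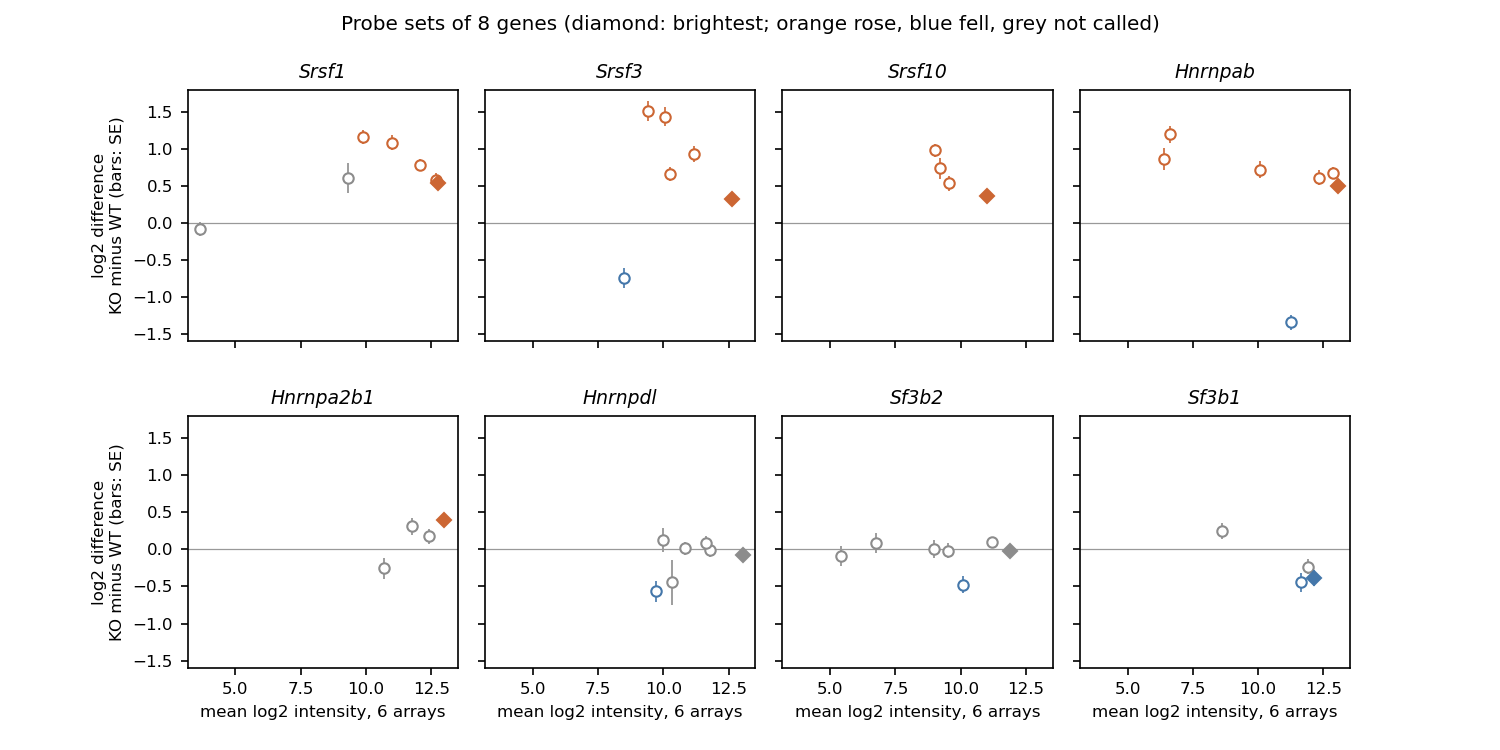
Log2 difference (KO minus WT, bars SE) against mean log2 intensity over 6 arrays for every probe set of 8 genes, with the brightest as a diamond. All further probe sets of Srsf1, Srsf3 and Srsf10 that rose did so by more than the brightest, up to 1.51, and 1 probe set each of Srsf3 and Hnrnpab lies below 0, at -0.75 and -1.34.

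Other splicing genes were taken from 5 lists written from general knowledge. Of all genes 18.6% rose and 18.6% fell, the shares to set beside those of each list. Of 32 other snRNP and tri-snRNP proteins 14 rose and 3 fell (43.8% and 9.38%), with a median difference of 0.25. Lsm2, of the ring that binds U6, read 7.76, 7.64 and 7.88 in WT and 9.09, 9.51 and 8.98 in KO, a 2.70-fold rise (limma adjusted p = 0.00048). Snrnp35, of the minor spliceosome's U11, rose by 1.15 ± 0.20, and Phf5a, the small SF3B subunit whose symbol lies outside the rule, by 0.62 ± 0.12. Pdcd7 and Snrnp48, also of the U11/U12 particle, fell by 0.48 and 0.47, and the tri-snRNP protein Prpf6 fell by 0.46. Without WT replicate 1, or without WT replicate 2, 8 genes of this list rose, and without WT replicate 2 or KO replicate 1 the number that fell was 1 or 2, Snrnp48 and Pdcd7 among those lost. Of 26 Prp19 complex and catalytic step factors 3 rose and 5 fell (11.5% and 19.2%), with a median of -0.10. Ppil1 and Prpf19 rose by 0.78 and 0.47 and Cwc27 by 0.37, while Syf2, Slu7, which guides 3' splice site choice, and Rbm22 fell by 0.88, 0.71 and 0.42. Leaving out WT replicate 2 left 3 of this list that fell and 2 that rose, where 13.4% of all genes fell and 14.3% rose. Scaling to hybridization controls gave 2 that fell and 8 that rose, where 7.22% of all genes fell and 42.8% rose.

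Of 43 other RNA-binding regulators 15 rose and 3 fell (34.9% and 6.98%, against 18.6% of all genes in each direction), with a median of 0.13. Mbnl3, of the muscleblind family, rose by 0.98 ± 0.10, Sfpq, a paraspeckle protein, by 0.97 ± 0.11 and Tardbp by 0.81 ± 0.10. Cirbp, the cold-inducible RNA-binding protein, fell by 1.12 ± 0.13, Rbm5 by 0.58 ± 0.12 and Mbnl1 by 0.34 ± 0.08, which differed by 0.03 under scaling to hybridization controls. Averaging probe sets lost the calls of Rbm5 and Mbnl1, at -0.71 and -0.11, and lowered Sfpq to 0.32 and Tardbp to 0.42, both still called. Leaving out WT replicate 1 left 7 of this list that rose, and leaving out WT replicate 2 left 8, with 2 that fell in either case. Scaling to hybridization controls gave 30 that rose and 1 that fell, where 42.8% of all genes rose and 7.22% fell. Among 16 snRNP assembly factors 6 rose and 3 fell (37.5% and 18.8%), with a median of 0.32. Ncbp2 of the cap-binding complex rose by 0.70, Gemin8 of the SMN complex by 0.64 (0.31 and not called as a mean of its probe sets) and Prmt5, which methylates Sm proteins, by 0.61, while Gemin7, the import adaptor Snupn and the export adaptor Phax fell by 0.54, 0.44 and 0.37. Without WT replicate 1, or without WT replicate 2, 3 rose, and 2 fell when any array but KO replicate 2 was left out. Hybridization-control scaling gave 12 that rose and 0 that fell, and in the snRNP list above 25 rose and 0 fell. In that setting 42.8% of all genes rose and 7.22% fell.

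Of 9 SR protein kinases and their importer 0 rose and 5 fell (0% and 55.6%, against 18.6% of all genes in each direction), with a median of -0.56. These kinases phosphorylate the arginine-serine domains of SR proteins. Clk1, a nuclear kinase, read 12.01, 12.2 and 11.9 in WT and 11.33, 10.91 and 11.46 in KO and fell by 0.80 ± 0.16 (limma adjusted p = 0.00772). Srpk2 and Srpk1, which act mainly in the cytoplasm, fell by 0.69 ± 0.10 and 0.69 ± 0.14. Clk2 and Clk3, also chosen after seeing their values, fell by 0.60 and 0.52. Clk4, chosen likewise, lay lower in every KO array than in every WT array and differed by -0.56 (limma adjusted p = 0.0599). The rest of the list did not pass either. Srpk3, dim at 5.09 in WT, differed by 0.62 ± 0.24 (limma adjusted p = 0.0962). The importer Tnpo3 differed by 0.13 ± 0.08 and Prpf4b by -0.18 ± 0.16. KO replicate 2 was the lowest KO array for Clk1, Clk2, Clk3, Srpk1 and Srpk2. Under scaling to hybridization controls 0 of this list fell and 2 rose, where 7.22% of all genes fell and 42.8% rose. Leaving out KO replicate 3 gave 1 that rose and 6 that fell, where 16.5% of all genes rose and 15.3% fell.

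**Figure D4:**
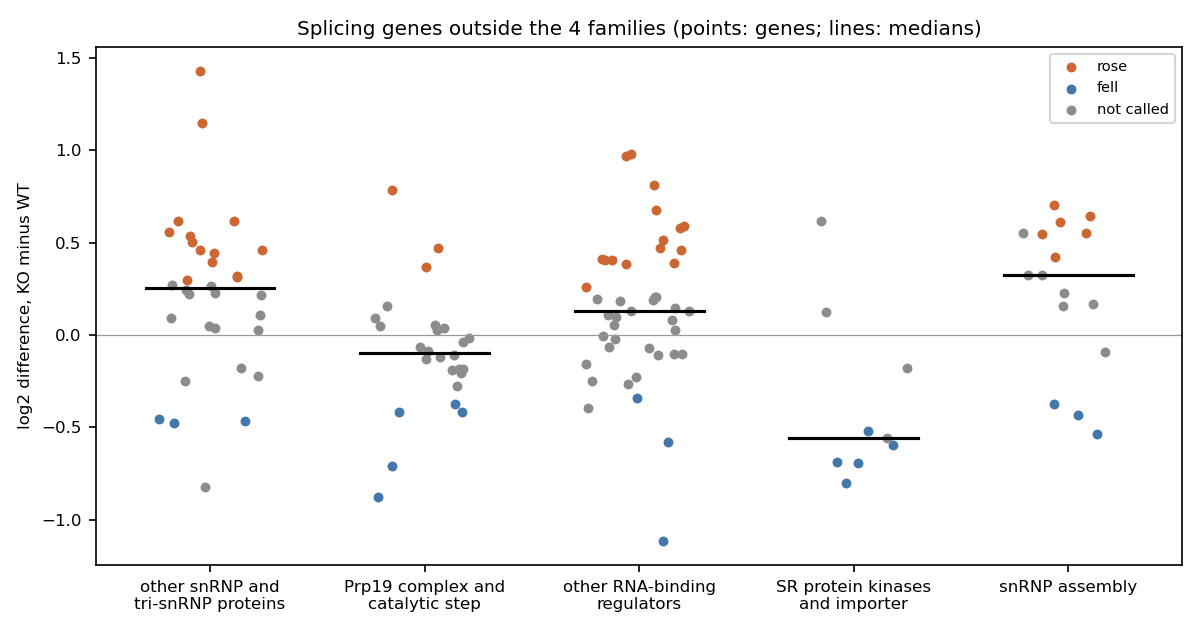
Log2 difference (KO minus WT) of each gene in the 5 further lists, orange where it rose, blue where it fell and grey where it did not pass, with a line at the median. The SR protein kinases and importer have the lowest median, -0.56, and the snRNP assembly factors the highest, 0.32.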

How the data were processed

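The deposited table holds log2 probe-set intensities of 6 Affymetrix 1-colour arrays, made by the authors with RMA per the submitters' processing notes (version not given in the sources used here). The values entered the fits unaltered, and every column was used. Of 45101 probe sets 64 were controls and 45037 were tested, of which 34945 have 1 annotated gene, 932 several, and 9160 are not listed. All 47 splicing genes matched GRCm38.p6 genes by Entrez ID, and 24 of their brightest probe sets carry a suffix (_s_at, _x_at or _a_at). Of these suffixes _s_at and _x_at mark possible cross-hybridisation.

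With R 4.3.3 and limma 3.58.1, genotype was fitted with lmFit and eBayes, and two-sided p-values were adjusted by Benjamini-Hochberg over all 45037 probe sets. Rose, fell and passed stand for an adjusted p below 0.05. The fit was run on simulated data with independent noise and few shifted probe sets, unlike these data. That run checked the code and not the calls given here. Replicates are separate mice, and their number, 3 per group, limits precision. The members and lists were chosen with earlier results of these data known. List symbols without a probe set of 1 annotated gene were left out.

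Named genes were Mir142, up to 5 risen and 5 fallen members per family with the largest differences, each family's brightest member, members with a further probe set called in the opposite direction, and up to 3 risen and 3 fallen genes per further list. Alternatives were a filter at the median level of 5.77, repeated quantile normalization, centring on array medians, scaling to 18 hybridization controls, a robust fit with an intensity trend, weighting of arrays, blocking on replicate number, a threshold of 0.1 on adjusted p, a 1.5-fold minimum, leaving out each array, averaging all probe sets of a gene, and brightest probe sets without a suffix. Where an array was left out, limma pooled the spread over both groups.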

Additional observations from a re-analysis of the deposited data

How the results depend on the processing

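The counts for the 47 splicing genes, 18 that rose and 3 that fell, moved most with scaling and with a minimum size of change. Scaling to hybridization controls gave 38 that rose and 1 that fell (80.9% and 2.13%, against 42.8% and 7.22% of all genes), and a 1.5-fold minimum 4 and 1 (8.51% and 2.13%, against 13.5% and 10.8%). Brightest probe sets without a suffix gave 6 that fell (12.8%, against 18% of all genes). With an array left out, 9 to 14 rose and 2 to 3 fell, the 9 without WT replicate 2 (19.1%, against 14.3% of all genes). A replicate block gave 9 that rose and 2 that fell (19.1% and 4.26%, against 16% and 14.6% of all genes). The labels do not pair the samples. Deviations of same-numbered arrays from their group means correlated at 0.10, -0.24 and -0.20, and not every array correlated best with its own number. With 3 arrays per group these correlations cannot show whether the mice were paired. Under the other alternatives both counts of splicing genes stayed within 1.5 times, but a filter at the median intensity raised the shares of all genes to 28.5% and 27.6%. Repeated quantile normalization gave 12 that rose and 4 that fell (25.5% and 8.51%), where 17.8% of all genes rose and 20% fell. Of the 18 genes 9 kept their call whichever array was left out, and Hnrnpll, Snrpa1 and Srsf9 among those that rose, with Srsf12 among those that fell, kept theirs under each alternative that tested them. Srsf9 and Srsf12 have 1 probe set each, so averaging probe sets or avoiding a suffix could not change their differences. A threshold of 0.1 on adjusted p could lose no call. When arrays were left out, 3 to 6 of 10 SR genes and 2 of 9 SF3A and SF3B genes rose. Of 9 Snrp genes 1 to 2 rose and of 19 hnRNP genes 3 to 5, where 14.3% to 17.6% of all genes did. Averaging a gene's probe sets left 0 SF3A and SF3B calls of 3 and turned Snrpc to -0.00099 and Sf3b6 to 0.00777, and Sf3b6 turned to 0.29 and Mbnl1 to 0.025 under hybridization-control scaling. Hnrnpa2b1 turned to -0.26 when probe sets with a suffix were avoided. The cause was not tested. Whether dim probe sets such as that of Srsf12 lie above background was not tested.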

Other observations

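Some probe sets of these families are shared with other genes in the annotation and so were not used for the 47. There were 16 such probe sets, for Snrpd1, Snrpd2, Snrpa and Hnrnpa3, which are not among the 47, and for Snrpn and Hnrnpa1, which are. Of these probe sets 5 rose, 2 fell and 9 did not pass, all named here after their values were seen. The probe set shared by Snrpd1, of the Sm ring, and Gm14277 read 10.92, 10.87 and 11.17 in WT and 11.66, 11.99 and 11.73 in KO, a log2 difference of 0.81 ± 0.13 (SE, n = 3 per group, limma adjusted p = 0.00272). It was larger than that of each of the 6 Sm ring genes with a probe set of their own. The probe set shared by Snrpa, the A protein of U1, with Gm21559 and Gm5161 read 10.44, 10.51 and 10.33 in WT and 11.1, 11.09 and 11.1 in KO, a difference of 0.67 ± 0.08 (limma adjusted p = 0.00105). That of Snrpd2 and Gm5848 differed by 0.32 ± 0.09 (limma adjusted p = 0.0333).

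Probe sets of the Snurf and Snrpn transcript, which is imprinted and is the tissue-restricted relative of Snrpb, differed by -0.89 and -0.82 in 2 of 6 probe sets that fell (limma adjusted p = 0.00123 and 0.00579), and both were dim, at 6.03 and 6.66 in WT. The 4 others differed by -0.34 to 0.01. Of 3 probe sets shared by Hnrnpa1 and 3 other loci 1 rose by 0.47 ± 0.11, and of 4 shared by Hnrnpa3 and Gm6793 1 rose by 0.30 ± 0.09. The signal of the genes that share a probe set cannot be told apart.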
